A study of Mus musculus with 14 samples.

Results

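Chemokine and chemoattractant receptors are the cell-surface receptors with which white blood cells sense where to go. The 9 genes described here are Ccr1, Ccr2, Cx3cr1, Cxcr2 and Cxcr4 (chemokine receptors), C5ar1 and C3ar1 (receptors for the complement fragments C5a and C3a), and Fpr1 and Fpr2 (formyl peptide receptors). They were chosen by name as receptors of myeloid cell recruitment, not by a cut-off on measured values, but with earlier results of these data known. They are 9 of the 55367 gene rows in each count table. All 9 passed the filter on low counts in both experiments, among 15794 genes in the first and 13456 in the second.

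Messenger RNA was sequenced in 14 libraries from mouse bone marrow cells depleted of cells that carry lineage markers, called lineage-negative cells, from wild-type animals. The cells grew with the cytokines SCF, IL6 and IL3 and were transduced with a lentivirus. In the first experiment the virus carried luciferase, the control (3 libraries), or SETBP1-D868N (3 libraries). SETBP1 is a nuclear DNA-binding protein, and D868N is a substitution known from myeloid neoplasms. In the second experiment every library came from cells carrying SETBP1-D868N, and these had been given the solvent DMSO (4 libraries) or 2.5 µM PF-9363 for 4 days (4 libraries). PF-9363 is an inhibitor of MYST-family histone acetyltransferases. Animal age, sex, strain, the promoter that drove the transgene and the time from transduction to harvest are not given in the sources used here. Nothing in the labels says that the replicates came from separate cultures or animals, so p-values measure the spread between libraries, which may be technical.

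These are G protein-coupled receptors, and they signal mainly through inhibitory G proteins. Their βγ subunits activate phosphoinositide 3-kinase and Rac and so drive directed crawling along a gradient of ligand. In marrow, CXCR4 holds progenitors and maturing neutrophils near stromal cells that make CXCL12, whereas CXCR2 draws mature neutrophils into blood. CCR2 brings classical monocytes out of the marrow, and the complement and formyl peptide receptors guide phagocytes over the last stretch to microbes and damaged cells.

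On the mouse assembly GRCm38 several of the genes lie in clusters of related receptors. Ccr1 (chr9:123962124-123968692, minus strand) and Ccr2 (chr9:124101950-124113557, plus strand) stand 133.3 kb apart. Fpr1 (chr17:17876471-17883940, minus strand) and Fpr2 (chr17:17887824-17893952, plus strand) point away from each other, with 3883 bases between them. Cxcr2 (chr1:74153989-74161246) and Cxcr4 (chr1:128588199-128592293) are far apart on chromosome 1. C5ar1 lies at chr7:16246743-16259540, C3ar1 at chr6:122847138-122856161 and Cx3cr1 at chr9:119901616-120069879.

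The stretches just before the start sites of 4 of these genes are shown because Fpr1 and Fpr2 are neighbours that moved together, Ccr1 is the gene whose neighbour Ccr2 moved the other way, and C3ar1 holds the only match found among the 9 genes. They are RefSeq windows on GRCm38.p6 that end at the start site, limited to bases outside the annotated gene and written 5′ to 3′ on the gene's own strand. Capitals mark the match to the letters TGANTCA, which the factor AP-1 is known to bind.
Fpr1 (chr17:17883941-17884189, minus strand): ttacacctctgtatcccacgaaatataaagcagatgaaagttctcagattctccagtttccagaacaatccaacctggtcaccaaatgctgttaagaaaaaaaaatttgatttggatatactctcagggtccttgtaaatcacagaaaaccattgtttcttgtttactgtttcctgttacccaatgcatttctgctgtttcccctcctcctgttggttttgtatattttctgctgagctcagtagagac
Fpr2 (chr17:17887574-17887823, plus strand): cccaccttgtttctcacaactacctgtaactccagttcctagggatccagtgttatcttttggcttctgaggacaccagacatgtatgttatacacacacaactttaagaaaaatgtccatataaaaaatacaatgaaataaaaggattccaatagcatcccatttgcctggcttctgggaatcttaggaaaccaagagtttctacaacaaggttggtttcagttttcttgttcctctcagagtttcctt
Ccr1 (chr9:123968693-123968942, minus strand): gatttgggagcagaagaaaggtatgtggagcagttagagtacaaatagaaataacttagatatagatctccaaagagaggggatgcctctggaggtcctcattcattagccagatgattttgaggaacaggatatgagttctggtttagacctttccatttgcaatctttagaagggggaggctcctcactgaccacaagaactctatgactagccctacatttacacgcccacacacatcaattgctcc
C3ar1 (chr6:122856162-122856407, minus strand): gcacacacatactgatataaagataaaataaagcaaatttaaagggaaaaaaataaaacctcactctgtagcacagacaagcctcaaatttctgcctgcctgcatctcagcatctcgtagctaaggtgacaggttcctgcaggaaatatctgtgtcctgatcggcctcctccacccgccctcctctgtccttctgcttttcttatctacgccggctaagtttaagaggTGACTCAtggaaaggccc
The 250 bases before each of the 9 RefSeq start sites were searched on both strands for TGANTCA, for GAGGAAG (a core of sites for the myeloid factor PU.1) and for TTGCNNAA (the paired arms of a C/EBP site). Among 32851 such windows of all genes, 6.75%, 10.6% and 9.56% hold the 3 motifs in that order. The C3ar1 match begins 22 bases before the start site and was the only match in the 9 windows. Of the 250 bases, 233 for Ccr2, 202 for C5ar1 and all 250 for Cx3cr1 lie inside the gene as GENCODE annotates it. For these genes no window is shown, and the search says little of the bases before the annotated gene. A match describes letters and not a bound site, and no match says only that these letters are not in the window.

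In the first experiment the libraries had 60147266 to 68730322 counts in total and in the second 7083731 to 10359093, so the receptors are measured less precisely in the second. Values in CPM (counts relative to the library total) are scaled to the library total with the TMM factor and are compared between libraries, not between genes. Values written with ± are means and SDs over the libraries of a group. A gene was called where edgeR's quasi-likelihood test gave an adjusted p under 0.05 over all genes tested. The gene symbol Setbp1 stood at 0.0892 ± 0.0136 CPM with luciferase and 0.339 ± 0.0295 CPM with SETBP1-D868N (SD, n = 3 each), and it says nothing of a transgene whose reads need not map to the mouse gene. Of 8 lymphoid markers, Ighm stood at 75.5 ± 2.36 CPM with luciferase and 53.3 ± 2.45 CPM with DMSO, and Nkg7 at 58.05 ± 1.98 and 41.5 ± 5.095 CPM, whereas the T cell, B cell and natural killer cell genes Cd3e, Ms4a1 and Klrb1c had at most 8 counts in a library of the first experiment and 0 in all 8 libraries of the second. The progenitor marker Kit stood at 180.4 ± 2.81 CPM with luciferase and 69.7 ± 5.88 CPM with DMSO, and S100a8, a gene of maturing neutrophils, at 3596 ± 158 and 3590.3 ± 515 CPM, so both kinds of transcript were present. In such bulk samples, fewer cells of a type and less RNA per cell cannot be told apart.

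SETBP1-D868N against luciferase compares cells given the mutant with control cells. No library carried added SETBP1 without the mutation, so the mutation and the added SETBP1 cannot be told apart. Of the 9 receptors, 7 were lower with SETBP1-D868N (Ccr1, Cx3cr1, Cxcr2, C5ar1, C3ar1, Fpr1 and Fpr2), by 1.19-fold to 1.77-fold. Ccr2 and Cxcr4, the receptors that bring monocytes out of marrow and keep cells in it, did not pass the test. Over all genes tested 22.7% were called lower and 24.5% higher, and 47.2% were called in either direction, so a call by itself was common. A fall of at least 2-fold was called for 2.48% of genes tested and a rise of that size for 1.34%, and no receptor reached 2-fold. The median log2 fold change over the 9 receptors was -0.52, beside 0.0043 over all genes tested.

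The formyl peptide receptors bind formylated peptides that bacteria and mitochondria release. Fpr1 stood at 35.5, 37.2 and 37.6 CPM in luciferase libraries 1 to 3 and at 21.7, 22.3 and 18.2 CPM in SETBP1-D868N libraries 1 to 3. All luciferase libraries were above all SETBP1-D868N libraries, and the difference (log2 fold change -0.83, SE 0.069, edgeR adjusted p = 8.60e-06) was the largest of the 9. Fpr2, which also binds serum amyloid A and annexin A1, stood at 40.1, 39.4 and 40.8 CPM with luciferase and 30.6, 28.4 and 25.2 CPM with SETBP1-D868N. The groups did not overlap for Fpr2 either (log2 fold change -0.51, SE 0.062, edgeR adjusted p = 7.81e-05). Library 3 of SETBP1-D868N was the lowest for both genes. For 56.7% of all genes tested the groups did not overlap.

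The complement receptors sense C5a and C3a, which complement activation releases. C3ar1 stood at 69.2, 71.96 and 71.7 CPM with luciferase and 39.5, 44.6 and 41.6 CPM with SETBP1-D868N. The gap between the groups was wider than the spread within either (log2 fold change -0.76, SE 0.043, edgeR adjusted p = 8.66e-08). C5ar1 stood at 72.3, 75.6 and 74.3 CPM with luciferase and 52.02, 50.7 and 51.9 CPM with SETBP1-D868N. The C5ar1 values within a group were close together and the groups were apart (log2 fold change -0.52, SE 0.031, edgeR adjusted p = 1.20e-07).

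CXCR2 and CXCR4 are the opposing receptors of neutrophil release and retention. Cxcr2 stood at 207, 218 and 214 CPM with luciferase and 149, 147 and 150.2 CPM with SETBP1-D868N. Every SETBP1-D868N library was below every luciferase library (log2 fold change -0.52, SE 0.028, edgeR adjusted p = 6.19e-08). Cxcr4 stood at 365, 387 and 378 CPM with luciferase and 369.7, 365 and 358 CPM with SETBP1-D868N. These groups overlapped (log2 fold change -0.05, SE 0.027, edgeR adjusted p = 0.175). The 95% interval of the Cxcr4 log2 fold change, -0.11 to 0.01, leaves out a fall as large as that of Cxcr2.

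CCR1, CCR2 and CX3CR1 are the chemokine receptors of monocytes, and CCR1 is also found on neutrophils. Ccr1 stood at 143, 149.5 and 149 CPM with luciferase and 121, 129 and 122 CPM with SETBP1-D868N. The groups were apart, by the smallest of the 7 called differences (log2 fold change -0.25, SE 0.032, edgeR adjusted p = 5.07e-05). Ccr2 stood at 302, 326 and 331 CPM with luciferase and 306, 319 and 313 CPM with SETBP1-D868N, and the groups overlapped (log2 fold change -0.03, SE 0.034, edgeR adjusted p = 0.477; 95% interval -0.11 to 0.04). Cx3cr1, the fractalkine receptor of resident-type monocytes and macrophages, was scarce, at 6.24, 7.45 and 7.26 CPM with luciferase and 4.43, 4.74 and 3.84 CPM with SETBP1-D868N. All 3 SETBP1-D868N libraries were below the luciferase libraries (log2 fold change -0.69, SE 0.10, edgeR adjusted p = 0.000148). Its annotated span overlaps 3 genes on its own strand (Gorasp1, Csrnp1 and Xirp1), which could share reads with it.

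**Figure D1:**
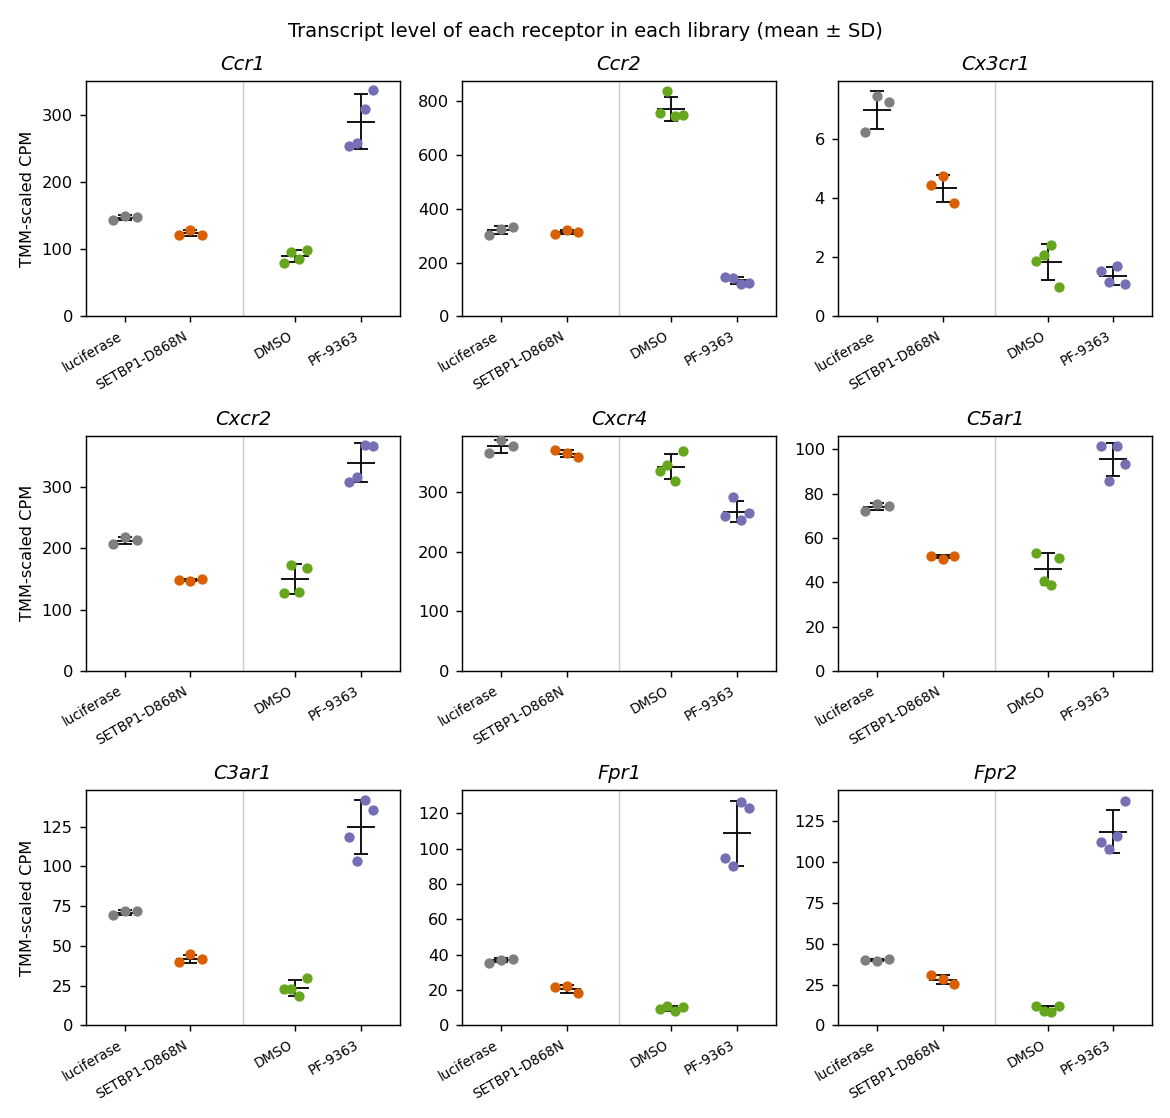
TMM-scaled CPM of the 9 receptors in the 14 libraries, 1 panel per gene on its own linear axis from 0, with a point for each library and lines for the group mean ± SD. With SETBP1-D868N 7 receptors sit below luciferase, and with PF-9363 Ccr2 falls to 121 to 145 CPM while Fpr1 and Fpr2 rise to at least 90.4 CPM.

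PF-9363 against DMSO asks what MYST inhibition does in cells that carry SETBP1-D868N. Of the 9 receptors, 6 rose (Fpr1, Fpr2, C3ar1, Ccr1, Cxcr2 and C5ar1), by 2.08-fold to 11.8-fold. Ccr2 fell 5.76-fold and Cxcr4 fell 1.28-fold, and Cx3cr1 did not pass the test. In this comparison 36.6% of all genes tested were called higher and 39.4% lower, or 76.0% in either direction. A rise of at least 2-fold was called for 15.8% of genes tested and a fall of at least 2-fold for 18.1%. The median log2 fold change was 1.18 over the 9 receptors and -0.038 over all genes tested.

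The formyl peptide receptors rose most. Fpr2 stood at 11.8, 8.66, 7.94 and 11.8 CPM in DMSO libraries 1 to 4 and at 112, 108, 116 and 138 CPM in PF-9363 libraries 1 to 4. The lowest PF-9363 library was far above the highest DMSO library, an 11.8-fold rise (log2 fold change 3.56, SE 0.11, edgeR adjusted p = 5.67e-18). Fpr1 stood at 9.302, 10.95, 7.94 and 10.6 CPM with DMSO and 94.7, 90.4, 126 and 123 CPM with PF-9363. Fpr1 rose 11.2-fold with no overlap (log2 fold change 3.48, SE 0.13, edgeR adjusted p = 1.48e-14), and PF-9363 libraries 3 and 4 were the higher pair. Overlap between groups was absent for 70.3% of all genes tested. Of the 50-base words of the Fpr2 transcripts, 31.5% also occur in another gene, mostly the predicted gene Gm5966, which had at most 4 counts in any library. Fpr3, annotated over the same strand as Fpr2, had 0 counts in all 14 libraries.

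Both complement receptors rose, C3ar1 more than C5ar1. C3ar1 stood at 22.7, 22.9, 18.2 and 29.97 CPM with DMSO and 118, 104, 142 and 135 CPM with PF-9363. The groups were well apart, with PF-9363 libraries 3 and 4 again above 1 and 2 (log2 fold change 2.41, SE 0.14, edgeR adjusted p = 2.81e-08). C5ar1 stood at 53.2, 40.5, 38.9 and 50.9 CPM with DMSO and 101, 85.8, 102 and 93.3 CPM with PF-9363. Here the PF-9363 libraries were alike and all above DMSO (log2 fold change 1.06, SE 0.093, edgeR adjusted p = 3.65e-10).

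The neutrophil pair moved in opposite directions. Cxcr2 stood at 128, 174, 129 and 168 CPM with DMSO and 308, 317, 369 and 367 CPM with PF-9363. The DMSO libraries fell into a lower pair (1 and 3) and a higher pair (2 and 4), and all were below every PF-9363 library (log2 fold change 1.18, SE 0.11, edgeR adjusted p = 1.68e-06). Cxcr4 stood at 336, 346, 319 and 369 CPM with DMSO and 259, 292, 253 and 265 CPM with PF-9363. The groups did not overlap for Cxcr4, but the fall was small beside the other called changes (log2 fold change -0.36, SE 0.063, edgeR adjusted p = 9.09e-06).

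The monocyte receptors Ccr1 and Ccr2 also parted. Ccr1 stood at 80.3, 96.1, 85.99 and 99.1 CPM with DMSO and 254, 258, 310.0 and 338 CPM with PF-9363, with no overlap (log2 fold change 1.68, SE 0.095, edgeR adjusted p = 7.22e-11). Ccr2 stood at 757, 838, 743 and 749 CPM with DMSO and 145, 144, 121 and 124 CPM with PF-9363. The DMSO libraries all held at least 743 CPM of Ccr2 and the PF-9363 libraries at most 145 CPM (log2 fold change -2.53, SE 0.070, edgeR adjusted p = 1.28e-22). DMSO library 2 was the highest and lay apart from the other 3. Cx3cr1 rested on few reads, 19, 21, 26 and 11 counts with DMSO and 15, 9, 11 and 10 counts with PF-9363. The groups overlapped, and the wide 95% interval (-1.17 to 0.30; log2 fold change -0.43, SE 0.36, edgeR adjusted p = 0.271) means that a change of the size seen with SETBP1-D868N was not resolvable at this depth.

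**Figure D2:**
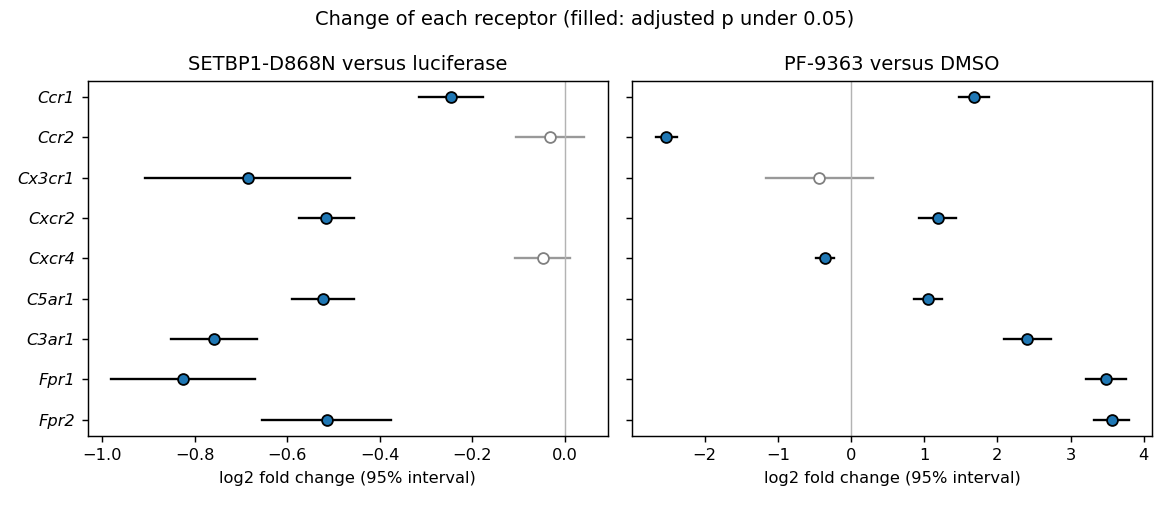
Log2 fold change of each receptor in both comparisons, with 95% intervals from the edgeR fit, filled where called and with a separate axis for each comparison. The intervals of 7 receptors lie below 0 with SETBP1-D868N, and those of 6 lie above 0 with PF-9363, where Ccr2 stands at -2.53.

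Set side by side, the experiments share no library. No luciferase cells were given PF-9363, so whether the changes with PF-9363 depend on SETBP1-D868N was not tested. Fpr1, Fpr2, C3ar1, Cxcr2, C5ar1 and Ccr1 were lower with SETBP1-D868N and higher with PF-9363, a pattern shown by 2084 of the 12376 genes tested in both experiments (16.8%). Ccr2 and Cxcr4 were not called in the first comparison and fell in the second, a pattern of 2197 genes (17.8%). Cx3cr1 was lower in the first and not called in the second, a pattern of 470 genes (3.80%). The changes were of unlike size: Fpr1 moved by -0.83 and then 3.48 on the log2 scale, and C5ar1 by -0.52 and then 1.06. The libraries of the experiments differ in RNA input (500 and 100 ng), library preparation and depth, so levels were not tested between them. The Y chromosome genes Kdm5d, Eif2s3y, Uty and Ddx3y averaged 14.12 to 37.95 CPM in the first experiment and had 0 counts in every library of the second. The donor animals thus seem to differ in sex as well, which the labels do not give.

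Summed over the 9 genes, receptor counts were 1286 ± 38.9 CPM with luciferase and 1097 ± 13.7 CPM with SETBP1-D868N (SD, n = 3 each). With DMSO the sum was 1445 ± 84.7 CPM and with PF-9363 it was 1480.1 ± 96.8 CPM (SD, n = 4 each), and these ranges overlapped (1352 to 1539 and 1395 to 1584). These sums weight long transcripts more. Per kb of annotated exon, the sum was 483 ± 12.9 CPM per kb with luciferase and 409 ± 6.82 with SETBP1-D868N, and it was 423 ± 27.5 with DMSO and 622 ± 44.3 with PF-9363, where the ranges did not overlap (391 to 449 and 581 to 672). The makeup of the total differed on both scales. Ccr2 took 53.5 ± 2.14% of the receptor counts, which are not scaled by length, with DMSO and 9.11 ± 1.43% with PF-9363. Cxcr2 took 10.3 ± 1.15% and 23.0 ± 0.782%, and Ccr1 took 6.25 ± 0.384% and 19.5 ± 1.48%. The formyl peptide receptors, at 0.669 ± 0.0584% (Fpr1) and 0.696 ± 0.141% (Fpr2) with DMSO, reached 7.30 ± 0.816% and 8.002 ± 0.506% with PF-9363. In the first experiment the makeup moved less: Ccr2 took 24.9 ± 0.507% with luciferase and 28.5 ± 0.477% with SETBP1-D868N, and Cxcr4 took 29.3 ± 0.280% and 33.2 ± 0.482%. Per kb, the share of Ccr2 was 27.03 ± 1.61% with DMSO and 3.21 ± 0.521% with PF-9363. The share of Cxcr4, the largest per kb in every group, was 44.7 ± 1.04% and 23.9 ± 2.75%, beside 23.7 ± 0.958% and 18.1 ± 2.03% of the counts. A share falls when the others rise, so these shares describe the mixture and are not independent of each other.

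**Figure D3:**
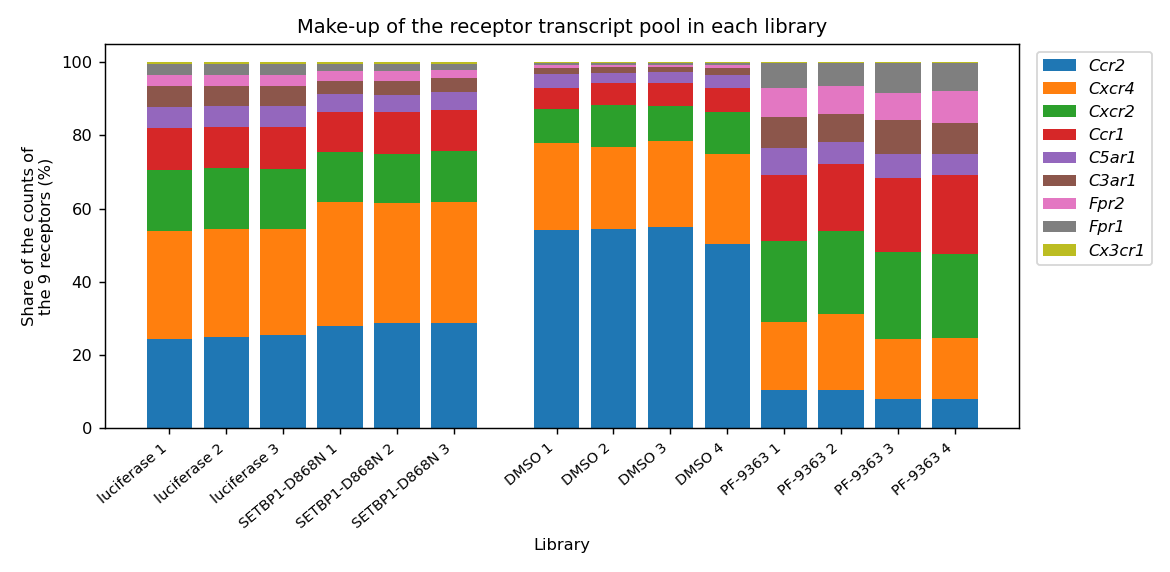
Share of each receptor in the summed counts of the 9 genes (percent, not scaled by length), 1 stacked bar per library. Ccr2 fills 50.3 to 55.0% of the bar in the DMSO libraries and 7.86 to 10.4% in the PF-9363 libraries.

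Ratios within a library do not depend on how libraries are scaled. The pairs below were picked after the values had been seen, so the ratios are given as a description beside an exact two-sided permutation test of the log2 ratio, adjusted over 8 relations. The ratio of Ccr1 to Ccr2 counts was 0.106 to 0.132 with DMSO and 1.75 to 2.72 with PF-9363, an 18.5-fold shift. Cxcr2 to Cxcr4 went from 0.381 to 0.503 with DMSO to 1.09 to 1.46 with PF-9363. C3ar1 to C5ar1 went from 0.426 to 0.589 with DMSO to 1.17 to 1.45 with PF-9363. Counts are not scaled by length, so a ratio above 1 does not give the order of levels. Per kb of annotated exon with PF-9363, mean Cxcr2 (112 CPM per kb) stayed below Cxcr4 (148), and C3ar1 (29.0) below C5ar1 (37.2). None of the 3 ratios of counts overlapped between the groups, and each gave the smallest p that 4 against 4 libraries allow (exact permutation p = 0.0286, adjusted 0.0762). Fpr1 to Fpr2 did overlap, at 0.790 to 1.26 with DMSO and 0.835 to 1.09 with PF-9363 (exact permutation p = 0.6). With SETBP1-D868N the ratio of Fpr1 to Fpr2 was 0.709 to 0.785, below the 0.886 to 0.945 of luciferase, and the smallest p that 3 against 3 libraries allow is the one obtained for all 4 pairs (exact permutation p = 0.1, adjusted 0.114).

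Levels can be compared between genes only per length. On a scale of CPM per kb of annotated exon, Cxcr4 was the most abundant receptor in every group, at 208 ± 6.15 with luciferase, 202 ± 3.18 with SETBP1-D868N, 189 ± 11.6 with DMSO and 148 ± 9.38 with PF-9363. Cx3cr1 was last in every group, at 1.55 ± 0.145, 0.963 ± 0.101, 0.410 ± 0.136 and 0.305 ± 0.0668 in the same order. The order with luciferase was Cxcr4, Cxcr2, Ccr1, Ccr2, Fpr2, C5ar1, Fpr1, C3ar1 and Cx3cr1, in which only the neighbours C5ar1 and Fpr1 overlapped. With SETBP1-D868N Ccr2 moved ahead of Ccr1, though these 2 overlapped, as did Fpr2 and C5ar1. With DMSO Ccr2 was the second most abundant at 114 ± 6.60 CPM per kb, and Fpr2, Fpr1 and C3ar1 overlapped each with the next. With PF-9363 Ccr2 was eighth at 19.8 ± 1.87 CPM per kb, and Cxcr2, Ccr1, Fpr2 and Fpr1 overlapped each with the next. The exon length of Ccr2, 6760 bases, is the longest of the 9 and covers all annotated transcripts, so a shorter main transcript would raise its level per kb.

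The genes Ccr1l1 and Ccr3 lie between Ccr1 and Ccr2 on chromosome 9. Ccr1l1 was scarce, at a mean of 0.141 CPM with luciferase and 0.364 CPM with SETBP1-D868N. It was called higher there (log2 fold change 1.36, edgeR adjusted p = 0.0159) and was not tested with PF-9363. Ccr3, an eosinophil receptor at chr9:124021972-124031689, rose with SETBP1-D868N (log2 fold change 1.71, SE 0.17, edgeR adjusted p = 6.67e-06) from 0.945 ± 0.263 to 3.08 ± 0.183 CPM. With PF-9363 it rose again (log2 fold change 1.74, SE 0.19, edgeR adjusted p = 4.00e-09), from 4.498 ± 0.997 to 15.2 ± 3.999 CPM. With PF-9363, Ccr1 and Ccr3 thus rose while Ccr2, on the same stretch of chromosome, fell.

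**Figure D4:**
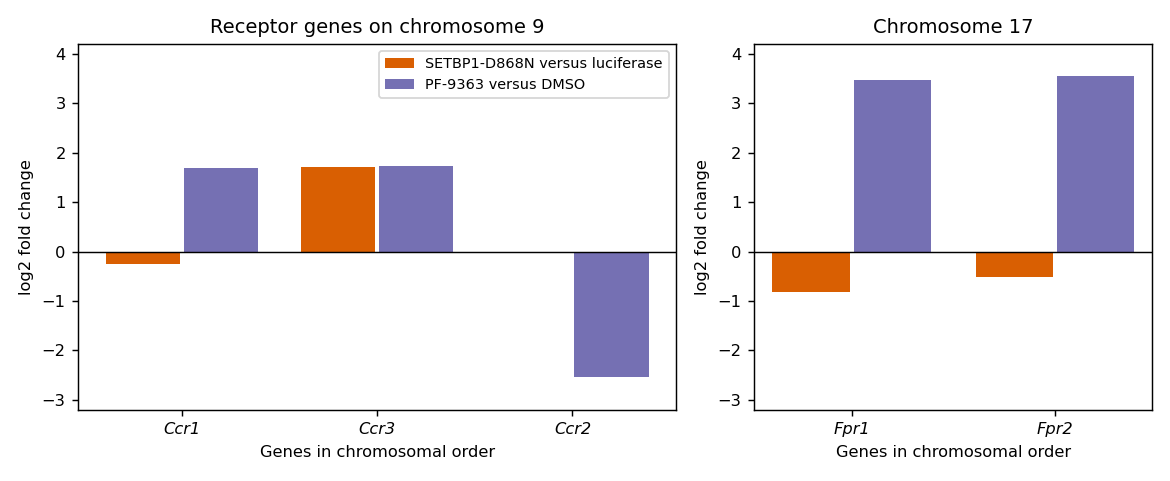
Log2 fold change (bars from 0, no error bars) of Ccr1, Ccr3 and Ccr2 on chromosome 9 and of Fpr1 and Fpr2 on chromosome 17, in order along the chromosome, in both comparisons. With PF-9363 Ccr2 at -2.53 stands opposite to Ccr1 at 1.68 and Ccr3 at 1.74, while Fpr1 and Fpr2 stand together at 3.48 and 3.56.

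Other genes of the pathway were read from 6 lists. Beside the counts below, 22.7% of all genes tested were called lower and 24.5% higher with SETBP1-D868N. With PF-9363 the shares were 39.4% lower and 36.6% higher. With SETBP1-D868N, among 9 tested of 13 other chemokine receptors, 5 were lower and 1 (Ccr3) was higher. Ccr7, which takes dendritic cells and lymphocytes to lymph nodes, fell from 64.2 ± 4.37 to 27.9 ± 0.585 CPM, and Ccr6 fell from 1.26 ± 0.156 to 0.324 ± 0.0966 CPM. All 8 tested of 11 further leukocyte chemoattractant receptors were lower, among them S1pr1, the sphingosine phosphate receptor of cell exit (log2 fold change -1.14, SE 0.12, edgeR adjusted p = 1.15e-05), and Ptgdr2, a prostaglandin D receptor with at most 16 counts in a library (log2 fold change -1.87, SE 0.44, edgeR adjusted p = 0.00388). Likewise all 3 tested of 6 atypical or decoy receptors were lower, namely C5ar2, a second C5a receptor (log2 fold change -0.44, SE 0.055, edgeR adjusted p = 3.60e-05), Ackr1, a chemokine-scavenging receptor (log2 fold change -0.66, SE 0.15, edgeR adjusted p = 0.0028), and Ccrl2, which presents chemerin (log2 fold change -0.33, SE 0.056, edgeR adjusted p = 0.000409). The median log2 fold changes of these 3 lists were -0.80, -0.60 and -0.44.

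With PF-9363, all 4 tested of the 13 other chemokine receptors rose. Ccr7 went from 2.52 ± 0.562 to 12.2 ± 1.85 CPM and Ccr10 from 0.7996 ± 0.568 to 3.897 ± 1.37 CPM. Ccr10 overlaps Cntnap1 on the other strand. Of 7 tested further chemoattractant receptors 6 rose, led by Cmklr1, the chemerin receptor, from 1.45 ± 0.467 to 26.4 ± 4.26 CPM (log2 fold change 4.19, SE 0.19, edgeR adjusted p = 1.45e-17), and by Hrh4, a histamine receptor, from 0.581 ± 0.273 to 5.31 ± 0.9905 CPM. The decoy C5ar2 went the other way from C5ar1, from 19.2 ± 2.53 to 13.2 ± 2.17 CPM (log2 fold change -0.54, SE 0.14, edgeR adjusted p = 0.000736). Ackr4, another decoy receptor, also fell (log2 fold change -0.96, SE 0.17, edgeR adjusted p = 1.29e-05), but it lies within Acad11, which is read on the other strand, and had 0 counts in every library of the first experiment. The lists' median log2 fold changes were 2.20 for other chemokine receptors, 2.93 for further chemoattractant receptors and -0.54 for decoys.

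Ligands of the 9 receptors moved with PF-9363 as well. Of 14 tested of 20 ligand genes, 12 rose and 1 fell, with a median log2 fold change of 2.41. Ccl7, a ligand of CCR2 and CCR1, went from 17.2 ± 2.51 to 257 ± 53.6 CPM (log2 fold change 3.89, SE 0.19, edgeR adjusted p = 4.13e-07). Ccl8, another chemokine gene on the list, went from 5.35 ± 1.36 to 68.9 ± 17.3 CPM. Ccl2, the main CCR2 ligand, went from 33.6 ± 2.71 to 299 ± 54.9 CPM (log2 fold change 3.15, SE 0.14, edgeR adjusted p = 3.10e-09), opposite to its receptor. Ccl6, a CCR1 ligand, went from 931 ± 79.4 to 4778 ± 647 CPM. C3, the source of C3a, went from 1722 ± 78.9 to 4093 ± 104 CPM, and Anxa1, an FPR2 ligand, from 329 ± 11.1 to 886 ± 51.8 CPM. Ppbp, a CXCR2 ligand of platelets, was the ligand that fell (log2 fold change -0.82, SE 0.21, edgeR adjusted p = 0.000977). Cxcl12, the CXCR4 ligand, had 0 counts in all 8 libraries of the second experiment. With SETBP1-D868N 9 of 18 tested ligand genes were lower and 2 higher (Cxcl3 by 0.45 and Ccl4 by 0.19 on the log2 scale), with a median of -0.26. The lower ones with the largest changes were Ccl5 (log2 fold change -1.19, SE 0.13, edgeR adjusted p = 1.37e-05) and Ccl8 (log2 fold change -1.09, SE 0.17, edgeR adjusted p = 0.000197). Anxa1 was also lower (log2 fold change -0.61, SE 0.044, edgeR adjusted p = 6.69e-06), while Ccl2 was not called (log2 fold change -0.19, SE 0.097, edgeR adjusted p = 0.151). Ccl2, Ccl6, C3 and Anxa1 were named after their values had been seen.

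**Figure D5:**
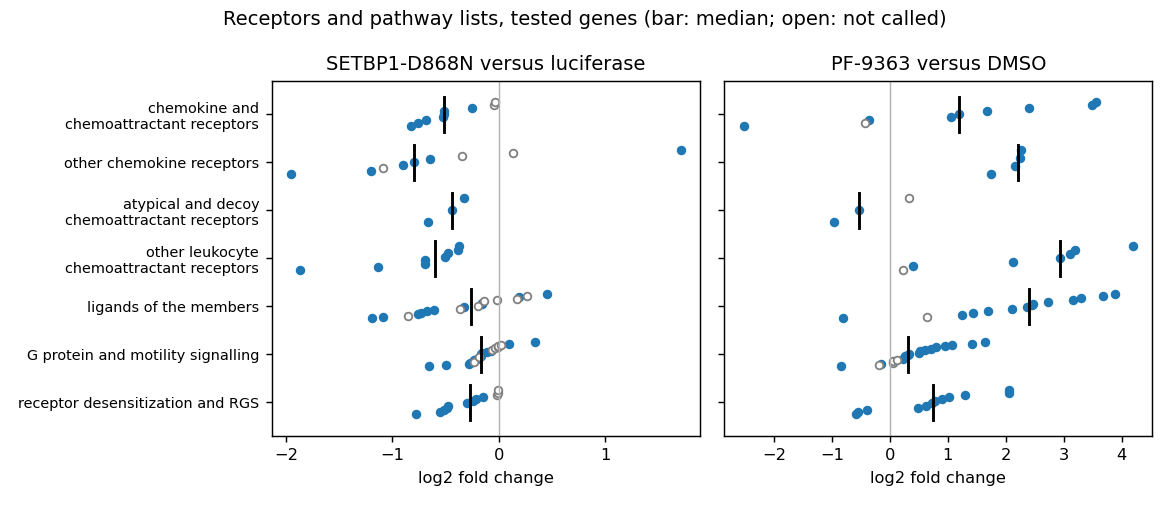
Log2 fold change of the 9 receptors and of every tested gene in the 6 pathway lists in both comparisons, 1 point per gene (open where not called) and a bar at each list's median. Other chemokine receptors have a median of -0.80 with SETBP1-D868N and 2.20 with PF-9363, and ligands -0.26 and 2.41.

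Downstream of the receptors, the lists' medians lay nearer to 0 than the receptors' own in the same comparison. Of 21 genes for G proteins and motility signalling, 12 were lower and 2 higher with SETBP1-D868N, at a median of -0.17 on the log2 scale. Pik3r5, the regulatory subunit through which βγ subunits switch on phosphoinositide 3-kinase gamma, was lower (log2 fold change -0.65, SE 0.028, edgeR adjusted p = 1.25e-08), as was Prex1, a Rac activator (log2 fold change -0.49, SE 0.047, edgeR adjusted p = 3.61e-05). Gng12, a γ subunit, was higher (log2 fold change 0.35, SE 0.023, edgeR adjusted p = 3.38e-07). Elmo1, an adaptor of Rac activation, was higher by a small amount (log2 fold change 0.09, SE 0.033, edgeR adjusted p = 0.0356). Its call was lost in 8 alternative analyses, with an edgeR adjusted p of up to 0.167, namely without luciferase library 1 or 3, without SETBP1-D868N library 2 or 3, with other size factors, with DESeq2, without robust estimation and with a replicate block. With PF-9363, of 20 tested genes 14 rose and 2 fell (median 0.32), and 9 rose when libraries were scaled by their totals alone. That scaling also lowered the higher calls over all genes, from 4921 to 3774. Pik3r5 (log2 fold change 1.65, SE 0.088, edgeR adjusted p = 4.69e-16) and Pik3r6 (log2 fold change 1.41, SE 0.095, edgeR adjusted p = 9.67e-14), the other regulatory subunit, both rose. Gng12 fell (log2 fold change -0.85, SE 0.061, edgeR adjusted p = 3.35e-13). Plcb2, a phospholipase, fell slightly (log2 fold change -0.16, SE 0.063, edgeR adjusted p = 0.0222), and that call was lost with other size factors and without DMSO library 1, PF-9363 library 3 or PF-9363 library 4 (edgeR adjusted p up to 0.131).

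Genes that switch the receptors off were the last list. With SETBP1-D868N, 9 of 12 tested of 13 genes for receptor kinases, arrestins and RGS proteins were lower (median -0.27), among them Rgs1 (log2 fold change -0.78, SE 0.053, edgeR adjusted p = 3.39e-07) and Rgs2 (log2 fold change -0.55, SE 0.042, edgeR adjusted p = 8.12e-07), which speed up the shut-off of G proteins. With PF-9363 9 of 12 rose and 3 fell (median 0.75). Grk5, a receptor kinase, rose from 10.4 ± 1.16 to 43.7 ± 4.15 CPM and Rgs10 from 8.38 ± 1.44 to 35.1 ± 1.46 CPM. The 3 that fell were the kinases Grk6 (log2 fold change -0.59, SE 0.068, edgeR adjusted p = 6.93e-09) and Grk3 (log2 fold change -0.55, SE 0.15, edgeR adjusted p = 0.00146) and the arrestin Arrb1 (log2 fold change -0.39, SE 0.069, edgeR adjusted p = 1.32e-05).

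Markers of the myeloid cells that carry these receptors moved in the same comparisons. Over all genes tested, 22.7% were called lower and 24.5% higher with SETBP1-D868N, and 39.4% lower and 36.6% higher with PF-9363. With SETBP1-D868N, 12 of 12 monocyte and macrophage markers were lower, and their summed level went from 2278 to 2319 CPM with luciferase to 1544 to 1641 CPM. All 12 neutrophil markers were lower too, from 22383 to 23251 CPM to 12173 to 14777 CPM, and 5 of 5 promyelocyte markers were higher, from 4772 to 5066 CPM to 6481 to 6580.0 CPM. With PF-9363, 10 of 12 monocyte and macrophage markers rose and 2 fell, and their sum went from 2857 to 3025 CPM to 3956 to 4441 CPM. The 2 that fell, with Ccr2, were Ly6c2 (log2 fold change -1.97, SE 0.16, edgeR adjusted p = 8.46e-06), which marks classical monocytes, and F13a1 (log2 fold change -6.04, SE 0.25, edgeR adjusted p = 3.80e-07), a coagulation factor gene of monocytes. Csf1r, the receptor that supports monocytes and macrophages, rose 6.82-fold (log2 fold change 2.77, SE 0.068, edgeR adjusted p = 1.48e-23). Neutrophil markers rose for 6 of 12 and fell for 2, from 14647 to 17883 CPM to 19677 to 21325 CPM. All 5 promyelocyte markers fell, from 5689 to 6811 CPM to 288 to 455 CPM. Mast cell and basophil markers rose for 9 of 10 with PF-9363, from 1246 to 1595 CPM to 4848 to 5822 CPM, and 5 of 5 tested eosinophil markers fell, from 608 to 797 CPM to 237 to 332 CPM. The part of these cell markers in the receptor changes was not tested.

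Among the remaining marker lists, dendritic cell markers were lower for 5 of 7 with SETBP1-D868N, from 784 to 845 CPM to 496 to 536 CPM, and with PF-9363 2 of 4 tested rose and 1 fell, from 270 to 317 CPM to 422 to 491 CPM. Erythroid and megakaryocyte markers were higher for 4 of 8 and lower for 2 with SETBP1-D868N, and 3 of 4 tested rose with PF-9363. Progenitor markers were higher for 4 of 5 and lower for 1 with SETBP1-D868N, and the lower one was Kit, the receptor for SCF (log2 fold change -0.66, SE 0.029, edgeR adjusted p = 1.87e-08). With PF-9363 2 rose, Kit among them (log2 fold change 1.45, SE 0.075, edgeR adjusted p = 3.32e-16), and 1 fell. Mast cell and basophil markers split evenly with SETBP1-D868N, 5 higher and 5 lower, and 2 of 6 eosinophil markers were lower. Of 8 lymphoid markers 3 were tested in the first experiment, of which 1 (Nkg7) was higher, and 2 in the second, where Nkg7 and Ighm fell. Stromal and endothelial markers summed to at most 6.13 CPM in any library, Col1a2 and Emcn had 0 counts in the second experiment, and 1 list member (Col1a2) was called, higher with SETBP1-D868N. Their part in the receptor changes was not tested.

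Genes whose levels followed a receptor most closely were found by Pearson's r of log2 CPM within each experiment, averaged over the 6 and the 8 libraries, among 9573 candidates. All points of an experiment share its 2 groups, so any gene that differed between the groups in the same way scores high, and no p is given. Fpr1 was followed most closely by Slfn2 (mean r 0.998) and Tlr13 (0.998), and Fpr2 by Scarb2 and Gpr137b (0.997 each). For C3ar1 the genes were Rbms1 (0.998) and Plp2 (0.997), and for C5ar1 Atg7 (0.997) and Efhd2 (0.991). Ccr1 was followed by Cdc42 and Soat1 (0.995 each), and Cxcr2 by Qsox1 (0.995) and Lif (0.994). Mean r was lower for Ccr2 and Cxcr4, which were not called with SETBP1-D868N, and for Cx3cr1, which was not called with PF-9363. For Ccr2 the genes were Pdk3 (0.947) and Mapk8ip3 (0.942), for Cxcr4 Ccdc28a (0.952) and Tm6sf1 (0.949), and for Cx3cr1 Wdfy1 (0.877) and Arhgap27 (0.865).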

How the data were processed

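RNA was measured in 14 libraries, grouped by the sample titles. The authors deposited 1 table of raw counts per experiment, with whole numbers per gene symbol. STAR, DESeq2, GRCm38 and mm10 are named in the submitters' processing notes, while versions, annotation and counting settings are not given in the sources used here. The tables differ in which genes hold reads: 67 genes had 0 counts throughout the first table but averaged 5 CPM or more in the second, and 65 of the 66 found in GENCODE M21 overlap a gene on the other strand. In the second table, reads of a gene and of one overlapping it on the other strand may therefore not be told apart. This touches Cx3cr1 and, among the named pathway and myeloid marker genes that were checked, Ackr4, Anxa1, Arrb1, Ccl2, Ccl6, Ccr10, Cmklr1, Csf1r, F13a1, Gng12 and Grk5, whereas the other 8 receptors overlap no gene on the other strand.

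Each experiment was fitted separately in R 4.3.3. Genes were kept with filterByExpr of edgeR 4.0.16 (minimum count 10, minimum total 15), counts were scaled with TMM, and the groups were tested with edgeR's quasi-likelihood method (robust), two-sided, with Benjamini-Hochberg adjustment over all genes tested and calls at an adjusted p under 0.05. The fit was tested on simulated data in which few genes changed, as many up as down. That test does not cover changes as widespread as those called here. Each standard error is the size of the log2 fold change over the root of its F statistic. Alternatives were DESeq2 1.42.0, limma-voom (limma 3.58.1), other scalings and filters, a replicate block, and leaving out each library. All columns were mapped to samples. The receptors and the lists were chosen with earlier results of these data known. All 9 receptors are named. Pathway genes were named by a rule, the 2 with the largest absolute log2 fold change per list and direction among those called (every called gene where a list had 3 or fewer), and further names are said to be chosen after their values were seen. Gene positions, exon lengths and overlaps come from GENCODE M21 (GRCm38), matched by symbol, and the sequences from RefSeq on GRCm38.p6. Replicates with the same number did not deviate together (correlations -0.097 to 0.0075), so they were not treated as pairs. Some genes of the lists are not reported here by name.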

Additional observations from a re-analysis of the deposited data

Results flagged for a closer look

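In 64 groups of 4 libraries (receptors, named pathway genes, receptor ratios and the receptor sum in the second experiment), 4 had a library whose gap to its nearest neighbour, divided by the group's range, was above Dixon's critical value. Chance alone marks about 1 in 20 groups. Ccr2 with DMSO had its highest library, DMSO 2, at 838 CPM (gap over range 0.854), which is on the side away from PF-9363. Ccr7 with DMSO had its highest library at 3.36 CPM (0.927). Rgs10 had its lowest library at 6.23 CPM with DMSO (0.882) and its lowest at 32.9 CPM with PF-9363 (0.846).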

How the results depend on the processing

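The 9 receptors kept their call and direction in 268 of 270 refits. The other 2 reversed without being called: with libraries scaled by their totals alone, SETBP1-D868N against luciferase gave a log2 fold change of 0.017 for Ccr2 and 0.00099 for Cxcr4. That scaling shifts the median gene by 0.049 in that comparison and by -0.23 with PF-9363, and moves the share of higher calls from 51.9% to 62.1% and from 48.1% to 36.2%. The difference in the log2 ratio of Fpr1 to Fpr2 with PF-9363, -0.099, ranged from -0.199 to 0.027 when each library was left out, and was above 0 without DMSO replicate 2 (an alternative chosen after seeing the data). With a replicate block, 7 receptors remained lower with SETBP1-D868N, and with PF-9363 6 were higher and 2 lower, while calls over all genes were 3416 higher and 3224 lower (3869 and 3579 without the block) and 4885 higher and 5239 lower (4921 and 5307). The numbers did not pair the libraries: no library correlated best with its own number. The call of Plcb2, lower with PF-9363, was lost in 4 alternatives (adjusted p up to 0.131) and that of Elmo1, higher with SETBP1-D868N, in 8, and the cause was not tested. Depth limits Cx3cr1 in the second experiment.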

Other observations

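Ackr4, a decoy receptor for CCL19, CCL21 and CCL25, had 0 counts in all 6 libraries of the first experiment, which allows at most 0.0436 to 0.0499 CPM at a limit of 3 counts. In the second experiment it had 103, 84, 109 and 137 counts with DMSO and 46, 39, 36 and 54 with PF-9363. Acad11 lies over it on the other strand. It is 1 of 67 genes at 0 in the first table that averaged 5 CPM or more in the second, and 65 of the 66 that were found in the annotation overlap a gene on the other strand, whereas 2 overlap a gene on their own strand. In the reverse case, 4 genes were at 0 in the second table and averaged 5 CPM or more in the first. They are the Y chromosome genes Kdm5d (mean 14.5 CPM in the first experiment), Eif2s3y (34.4 CPM), Uty (14.1 CPM) and Ddx3y (37.95 CPM). Their transcripts were thus seen in the first experiment alone, and the sex of the animals is not given. None of the 4 overlaps a gene on the other strand. F13a1, which fell with Ccr2, has such a partner, Gm30489, at a mean of 35.8 CPM in the second experiment.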
